A study of Homo sapiens with 4 samples.

Results

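RNA levels in SUM159-R cells treated with paclitaxel and enzastaurin together were compared with those in the same cells treated with paclitaxel alone, which shows what enzastaurin added once paclitaxel was present. SUM159-R is a paclitaxel-resistant derivative of SUM159, a human triple-negative breast cancer cell line with the genotype given as WT, and it was maintained in 150 nM paclitaxel. The combination library comes from cells given 500 nM paclitaxel and 2.5 µM enzastaurin for 24 h, and the paclitaxel library from cells given 500 nM paclitaxel for 24 h. An enzastaurin library (2.5 µM, 24 h) and a DMSO library (solvent, no drug added for the experiment) complete the series. Each of the 4 conditions has 1 library from 1 resistant line, so no difference below can be set against the spread between cultures. The sources used here do not say whether the maintenance paclitaxel was removed before DMSO or enzastaurin was added. The genes described are those with a mean of at least 500 counts over the 4 libraries, which are 6986 of the 20289 genes in the table and hold 95.9% of the counts in the combination and 95.5% in paclitaxel.

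Paclitaxel binds beta-tubulin and stabilises microtubules, so that dividing cells are held in mitosis by the spindle checkpoint. Enzastaurin is an ATP-competitive inhibitor of protein kinase C (PKC), a family of kinases that relay signals from lipid second messengers to ERK, to the transcription factor AP-1 and to the cytoskeleton. Exit from mitosis depends on the anaphase-promoting complex (APC), a ubiquitin ligase that marks cyclin B and securin for the proteasome once all chromosomes are attached. Levels are given in CPM, counts relative to a fixed library total after TMM scaling. Differences between the combination and paclitaxel are log2 ratios, positive where the combination was higher, and the range in parentheses is a 95% interval that covers counting error only.

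Past the fold limits nearly all differences between the 2 libraries were lower levels in the combination. Of the 6986 genes, 137 were lower by 2-fold or more with an interval excluding no change (1.96% of all genes compared) and 2 were higher (0.0286%). At 1.5-fold, 471 genes were lower (6.74%) and 54 were higher (0.773%). The 2 genes past 2-fold upward were CKS2, at 1.09 (1.00 to 1.18), and NPIPB5, which shares most of its sequence with other NPIP genes and is not interpreted further. With a trend in transcript length and GC content removed, CKS2 was at 0.87 and no longer past 2-fold. Small differences leaned the other way: 3854 genes had a positive ratio and 3132 a negative one (55.2% and 44.8%), and the interval excluded 0 in 2699 higher and 2166 lower genes. Next below the 2-fold limit was CCNB1 at 0.998, and at the lower limit GABARAP, which shares reads, lay just inside at -1.003 and SCAMP2 just outside at -0.996. The log2 ratios had a median of 0.033 and an SD of 0.344, with 5% of genes below -0.68 and 5% above 0.38. Together the 137 lower genes held 7470 CPM in the combination and 17969 CPM in paclitaxel.

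**Figure D1:**
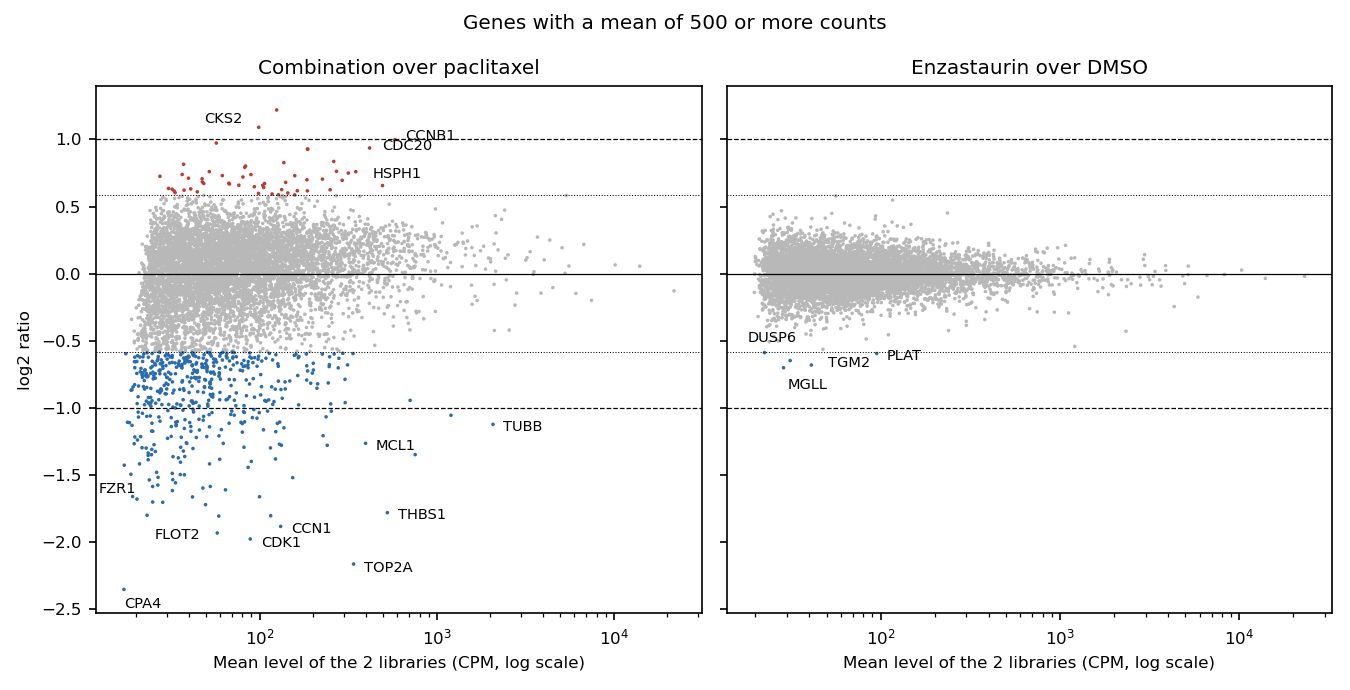
Log2 ratio of every gene with a mean of 500 or more counts (vertical axis) against its mean level in the 2 libraries compared (CPM, log axis), for the combination over paclitaxel (left) and enzastaurin over DMSO (right). Dashed lines mark 2-fold and dotted lines 1.5-fold, and red and blue points lie beyond 1.5-fold; on the left 137 genes lie past 2-fold downward, and on the right no gene lies past 2-fold in either direction.

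The total counts were 18236527 in the combination and 24699948 in paclitaxel, with 21959564 in enzastaurin and 22576953 in DMSO. TMM factors ran from 0.988 to 1.006, and the mitochondrial share of counts was 6.70% in the combination and 7.06% to 7.12% in the other 3 libraries. The median interval reached 0.110 to either side of its log2 ratio, and the widest 0.309. With the paclitaxel library thinned to the depth of the combination, which is the smallest library, 136 of the 137 lower genes remained past 2-fold. Of the receptors absent from triple-negative tumours, PGR had 0 counts, ESR1 at most 3 counts in any library, and ERBB2 19.0 to 24.97 FPKM, against 1948 to 2508 FPKM for VIM, which encodes the mesenchymal filament protein vimentin. The T cell gene CD3E had 0 counts in all 4 libraries, and the leukocyte gene PTPRC had 2 counts in the combination, 16 in paclitaxel, 13 in enzastaurin and 13 in DMSO. Other markers were present. The epithelial keratin genes KRT8 and KRT18 had 167 to 184 FPKM and 184 to 220 FPKM, while epithelial CDH1 had at most 14 counts and EPCAM at most 5. The fibroblast genes COL1A1 and PDGFRB had 794 to 1745 counts and 94 to 277 counts.

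Some genes of mitotic entry and exit were among the highest ratios and others among the lowest, while most lay within 1.5-fold. Of 21 mitotic kinases and phosphatases 2 were past 1.5-fold upward and 3 downward (median -0.04). Of 24 APC genes 5 were past it upward and 5 downward. Over all genes 0.773% were past it upward and 6.74% downward. The 5 genes described first were picked from the ends of the ranking. CKS2, a small subunit that docks on cyclin-dependent kinases (ENSG00000123975; chromosome 9, 89311198 to 89316703, plus strand), had 135 CPM in the combination, 63.2 CPM in paclitaxel, 58.6 CPM in enzastaurin and 55.4 CPM in DMSO. CCNB1, which encodes cyclin B1 (ENSG00000134057; chromosome 5, 69167010 to 69178245, plus strand), had 774 CPM in the combination, 387 CPM in paclitaxel, 352 CPM in enzastaurin and 339 CPM in DMSO. CDC20, which activates the APC at anaphase (ENSG00000117399; chromosome 1, 43358955 to 43363203, plus strand), had 549 CPM in the combination, 287 CPM in paclitaxel, 258 CPM in enzastaurin and 272 CPM in DMSO. All 3 genes were highest in the combination and lay close together in the other 3 libraries, with log2 ratios of 1.09, 1.00 and 0.94. The opposite was true of CDK1, the kinase that cyclin B1 activates (ENSG00000170312; chromosome 10, 60778331 to 60794852, plus strand), which had 35.8 CPM in the combination, 141 CPM in paclitaxel, 164 CPM in enzastaurin and 159 CPM in DMSO, a log2 ratio of -1.98 (-2.10 to -1.86). TOP2A, the topoisomerase that untangles sister chromatids (ENSG00000131747; chromosome 17, 40388516 to 40417950, minus strand), had 124 CPM in the combination, 555 CPM in paclitaxel, 692 CPM in enzastaurin and 668 CPM in DMSO, a log2 ratio of -2.17 (-2.23 to -2.10). Both were lower in the combination than in any other library. In RNA from a whole culture, a change in how many cells are in mitosis and a change in RNA per cell cannot be told apart.

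The promoters of these 5 genes are shown because members of a single cell cycle programme moved in opposite directions. Each window runs from 250 bases before to 50 bases after the gene's start in RefSeq (GRCh38.p14), on the gene's own strand from 5′ to 3′. Capitals mark CCAAT boxes (CCAAT on either strand), which bind the factor NF-Y, and the cell cycle homology region, or CHR (TTTGAA or TTCGAA on either strand), which binds the DREAM and MuvB complexes.
CKS2 (chr9:89310945-89311244, plus strand): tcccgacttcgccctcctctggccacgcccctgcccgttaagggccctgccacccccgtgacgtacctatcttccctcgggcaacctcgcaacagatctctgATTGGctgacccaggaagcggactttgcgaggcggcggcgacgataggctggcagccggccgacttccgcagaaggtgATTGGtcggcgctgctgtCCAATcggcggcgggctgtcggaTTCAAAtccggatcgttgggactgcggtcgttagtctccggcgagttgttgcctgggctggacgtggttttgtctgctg
CCNB1 (chr5:69166900-69167199, plus strand): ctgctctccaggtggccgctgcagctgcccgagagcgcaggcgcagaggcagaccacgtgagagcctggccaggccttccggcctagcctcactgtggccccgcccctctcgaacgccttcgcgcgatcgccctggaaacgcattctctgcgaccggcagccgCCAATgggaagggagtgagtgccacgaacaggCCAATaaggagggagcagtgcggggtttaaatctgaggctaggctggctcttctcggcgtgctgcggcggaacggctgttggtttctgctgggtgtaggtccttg
CDC20 (chr1:43358731-43359030, plus strand): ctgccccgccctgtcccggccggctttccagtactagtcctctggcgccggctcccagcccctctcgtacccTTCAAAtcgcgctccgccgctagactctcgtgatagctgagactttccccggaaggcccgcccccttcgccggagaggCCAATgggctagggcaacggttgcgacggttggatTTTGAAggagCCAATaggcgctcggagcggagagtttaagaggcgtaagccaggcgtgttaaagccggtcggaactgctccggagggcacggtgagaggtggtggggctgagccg
CDK1 (chr10:60778081-60778380, plus strand): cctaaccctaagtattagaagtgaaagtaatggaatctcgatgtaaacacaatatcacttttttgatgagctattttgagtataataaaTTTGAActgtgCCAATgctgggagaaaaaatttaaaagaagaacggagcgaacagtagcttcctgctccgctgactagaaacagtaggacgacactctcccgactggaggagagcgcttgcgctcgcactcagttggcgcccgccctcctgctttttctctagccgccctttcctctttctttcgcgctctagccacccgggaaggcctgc
TOP2A (chr17:40417847-40418146, minus strand): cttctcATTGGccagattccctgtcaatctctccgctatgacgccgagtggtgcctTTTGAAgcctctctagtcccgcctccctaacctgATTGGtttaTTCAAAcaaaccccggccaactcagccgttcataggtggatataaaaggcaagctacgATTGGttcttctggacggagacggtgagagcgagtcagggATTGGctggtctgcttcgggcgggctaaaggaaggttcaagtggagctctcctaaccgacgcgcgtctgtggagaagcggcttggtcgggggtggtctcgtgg
The window held 3 CCAAT boxes and 1 CHR for CKS2, 2 and 0 for CCNB1, 2 and 2 for CDC20, 1 and 1 for CDK1, and 4 and 2 for TOP2A. Both motifs were present in windows of higher and of lower genes. Over all genes matched to a promoter, a CHR was found in 20 of 102 genes past 2-fold downward (19.6%), in 16 of 40 genes past 1.5-fold upward (40.0%) and in 614 of 5392 genes in all (11.4%), against 16.6% of all 27305 promoters in the RefSeq table. CCAAT boxes were found in 44.1%, 57.5% and 37.0% of the same 3 sets and in 35.7% of all promoters. These shares describe letters in a window, not binding.

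Within the APC list of 24 genes, the partners of single steps diverged. UBE2S, the enzyme that extends ubiquitin chains on APC substrates, was at 0.70 (0.64 to 0.75) with 362 CPM in the combination and 224 CPM in paclitaxel. UBE2C, the enzyme that starts those chains, was at -1.62 (-1.81 to -1.43) with 15.8 CPM in the combination and 48.6 CPM in paclitaxel. FZR1, the activator that replaces CDC20 in late mitosis and G1, was at -1.59 (-1.81 to -1.38), and FBXO5, which encodes the APC inhibitor EMI1, was at -1.71 (-1.91 to -1.50). UBE2C, FZR1 and FBXO5 were the only list members past 2-fold downward, and CKS2 the only member past it upward; the list's median was 0.19. The mitotic cyclins CCNB2, at 0.59, and CCNA2, at 0.29, and the securin gene PTTG1, at 0.51, were on the same side as CCNB1. CCNF, the cyclin that acts as an F-box protein and opposes FZR1, was at -1.56 (-1.75 to -1.38).

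**Figure D2:**
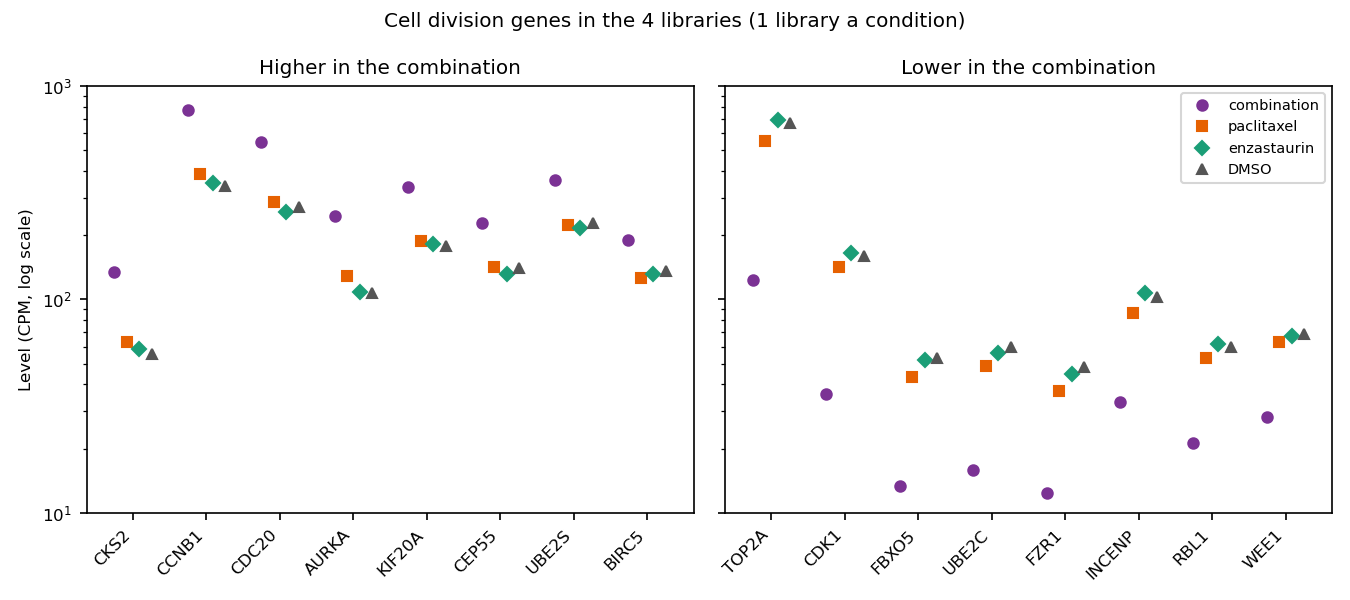
Level (CPM, log axis) of 16 cell division genes in the 4 libraries, 1 point a library, with the genes that were higher in the combination on the left and those that were lower on the right. CKS2, CCNB1 and CDC20 stand apart upward in the combination and TOP2A, CDK1 and FZR1 downward, while the other 3 libraries cluster for each gene.

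Among mitotic kinases AURKA, the spindle pole kinase, had 245 CPM in the combination, 129 CPM in paclitaxel, 108 CPM in enzastaurin and 107 CPM in DMSO, and the ratio was 0.93 (0.86 to 0.99). PLK1, which drives mitotic progression, was at 0.70, and NEK2, which separates centrosomes, was at 0.57. WEE1, the kinase that restrains CDK1, had 28.2 CPM in the combination, 63.3 CPM in paclitaxel, 67.3 CPM in enzastaurin and 69.04 CPM in DMSO, and its relative PKMYT1 was at -0.66. The kinase that drives entry and both kinases that hold it back were therefore lower in the combination, while AURKA and PLK1 were higher. In the chromosomal passenger complex INCENP, the scaffold, was at -1.39 (-1.52 to -1.25) and AURKB, the kinase named in the series title, at -0.23 (-0.42 to -0.04), with 20.9 CPM in the combination and 24.5 CPM in paclitaxel. AURKB was lowest in the combination of all 4 libraries, with 26.1 CPM in enzastaurin and 31.2 CPM in DMSO. Its ratio of enzastaurin over DMSO was -0.26 (-0.42 to -0.10), so the lower level with enzastaurin was similar without added paclitaxel. BIRC5 and CDCA8, the targeting subunits of the complex, were at 0.59 and 0.12 in the combination over paclitaxel.

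Kinetochore and spindle genes moved in both directions. Of 23 outer kinetochore and checkpoint genes 16 were positive, with a median of 0.20, where 55.2% of all genes were positive. SGO2, which protects centromeric cohesion, was at 0.59, whereas the checkpoint gene BUB3 was at -0.93 (-1.01 to -0.85). Of 16 inner kinetochore and CENP genes 9 were positive (median 0.02), from the centromeric histone CENPA at 0.63 and the motor CENPE at 0.62 to CENPI, which helps recruit CENPA, at -0.57. Of 13 mitotic kinesins, KIF20A, a motor of cytokinesis, at 0.84 (0.78 to 0.89), and KIF18A, at 0.67, which dampens chromosome oscillation, were past 1.5-fold upward together with KIF4A, whose reads are partly shared, and none was past it downward, the lowest being the spindle motor KIF11 at -0.52. CEP55, a midbody scaffold, had 229 CPM in the combination, 141 CPM in paclitaxel, 132 CPM in enzastaurin and 141 CPM in DMSO. Of 31 microtubule-associated genes 14 were positive (median -0.02). TACC2 was at 0.76, DLGAP5 at 0.73 and SPAG5 at 0.62, whereas the neuronal stabiliser MAP1B was at -1.11 (-1.19 to -1.02) and the microtubule polymerase CKAP5 at -0.97. SASS6, which builds the centriole cartwheel, was the lowest of 32 centrosome genes at -1.11 (-1.34 to -0.88), and 14 of the list were positive (median -0.05).

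Tubulins, the targets of paclitaxel, did not move together. TUBB, a beta-tubulin gene, had 1308 CPM in the combination, 2852 CPM in paclitaxel, 3103 CPM in enzastaurin and 2814 CPM in DMSO, a log2 ratio of -1.12 (-1.15 to -1.10). TUBB6, another beta isotype, was at 0.19 and the alpha isotype TUBA4A at 0.06. Of the 9 tubulin genes, 6 share sequence with copies, so the values of TUBA1C at -0.95 and TUBA1A at -0.66 may be split between genes.

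DNA replication and repair genes were mostly lower. Of 25 origin and helicase genes 17 were negative and 5 were past 1.5-fold downward (median -0.28). Over all genes 44.8% were negative and 6.74% were past 1.5-fold downward. MCM5, a subunit of the replicative helicase, was at -0.95 (-1.04 to -0.87) and TOPBP1, which fires origins and activates ATR, at -0.94 (-1.03 to -0.85). The origin recognition genes ORC1 to ORC3, ORC5 and ORC6 were at 0.03 to 0.30, and DBF4, the activator of the kinase CDC7, was highest at 0.40. Of 28 polymerase and nucleotide genes 21 were negative, with PCNA at -0.49 and POLD3 at -0.59. Of 23 recombination and Fanconi genes 19 were negative. BARD1, the partner of BRCA1, had 9.82 CPM in the combination, 27.7 CPM in paclitaxel, 35.2 CPM in enzastaurin and 29.5 CPM in DMSO, a ratio of -1.50 (-1.74 to -1.26), while BRCA1 itself was at -0.50 and BRCA2 at -0.18. In FPKM BRCA1 had 22.16 in the combination and 26.35 in paclitaxel, a smaller difference. UNG, which removes uracil from DNA, was at -1.30 (-1.46 to -1.15). The checkpoint kinase gene CHEK2 was at -0.92, ATM at -0.78 and the mediator CLSPN at -0.81, whereas ATR was at -0.03.

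The regulators of G1 and S phase were mixed. RBL1, which encodes the pocket protein p107, had 21.2 CPM in the combination, 53.1 CPM in paclitaxel, 62.00 CPM in enzastaurin and 59.9 CPM in DMSO, while RB1 was at -0.18 and RBL2 at -0.03. E2F1, E2F2 and E2F7 were at -0.88, -0.60 and -0.79, and E2F3 and E2F4 at 0.16 and 0.19. FOXM1, the activator of G2 and M phase genes, was at 0.49. Of 10 G1 cyclins, kinases and inhibitors 9 were negative (median -0.38), where 44.8% of all genes were. CDK6 was at -0.73, CDK2 at -0.56 and CKS1B, the CDK docking subunit that helps degrade p27, at -0.79 (-0.93 to -0.66). CKS1B and CKS2 encode close paralogues and went in opposite directions. The paralogous protease genes FAM111A, which acts at replication forks, and FAM111B were at -1.03 and -1.49.

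In several gene families a single member was past 2-fold downward and its paralogues were not. These families were picked after the values had been seen. CALM2 had 153 CPM in the combination and 322 CPM in paclitaxel, a ratio of -1.07 (-1.13 to -1.01), while CALM3, which encodes the same calmodulin protein, was at 0.28. Of 6 genes for 14-3-3 proteins, adaptors that bind phosphorylated partners, YWHAB was at -1.03 (-1.09 to -0.97) and the other 5 lay between -0.20 and 0.20. KPNA2, a nuclear import receptor, had 141 CPM in the combination, 342 CPM in paclitaxel, 432 CPM in enzastaurin and 433 CPM in DMSO, and the other measured alpha importins KPNA1, KPNA3, KPNA4 and KPNA6 lay between -0.24 and 0.24. Of the HP1 proteins, which bind methylated histone H3, CBX5 was at -1.18 (-1.27 to -1.09) and CBX1 and CBX3 were both at 0.23. Among small GTPases of membrane traffic ARF3 was at -1.15 (-1.23 to -1.07), RAB5B at -1.14 (-1.28 to -1.01) and RAB11B at -1.07 (-1.26 to -0.88), while ARF1, RAB5A and RAB11A were at 0.20, 0.15 and -0.06. TOP2B was at -0.45 beside TOP2A at -2.17, and DDX5 at -0.21 beside DDX17 at -1.21 (-1.27 to -1.14), both RNA helicases. ATP1B1, a sodium pump subunit, was at -1.41 (-1.58 to -1.24) with ATP1B3 at 0.24, and the transcription factor SP1 was at -1.45 (-1.56 to -1.34) with SP3 at 0.06.

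**Figure D3:**
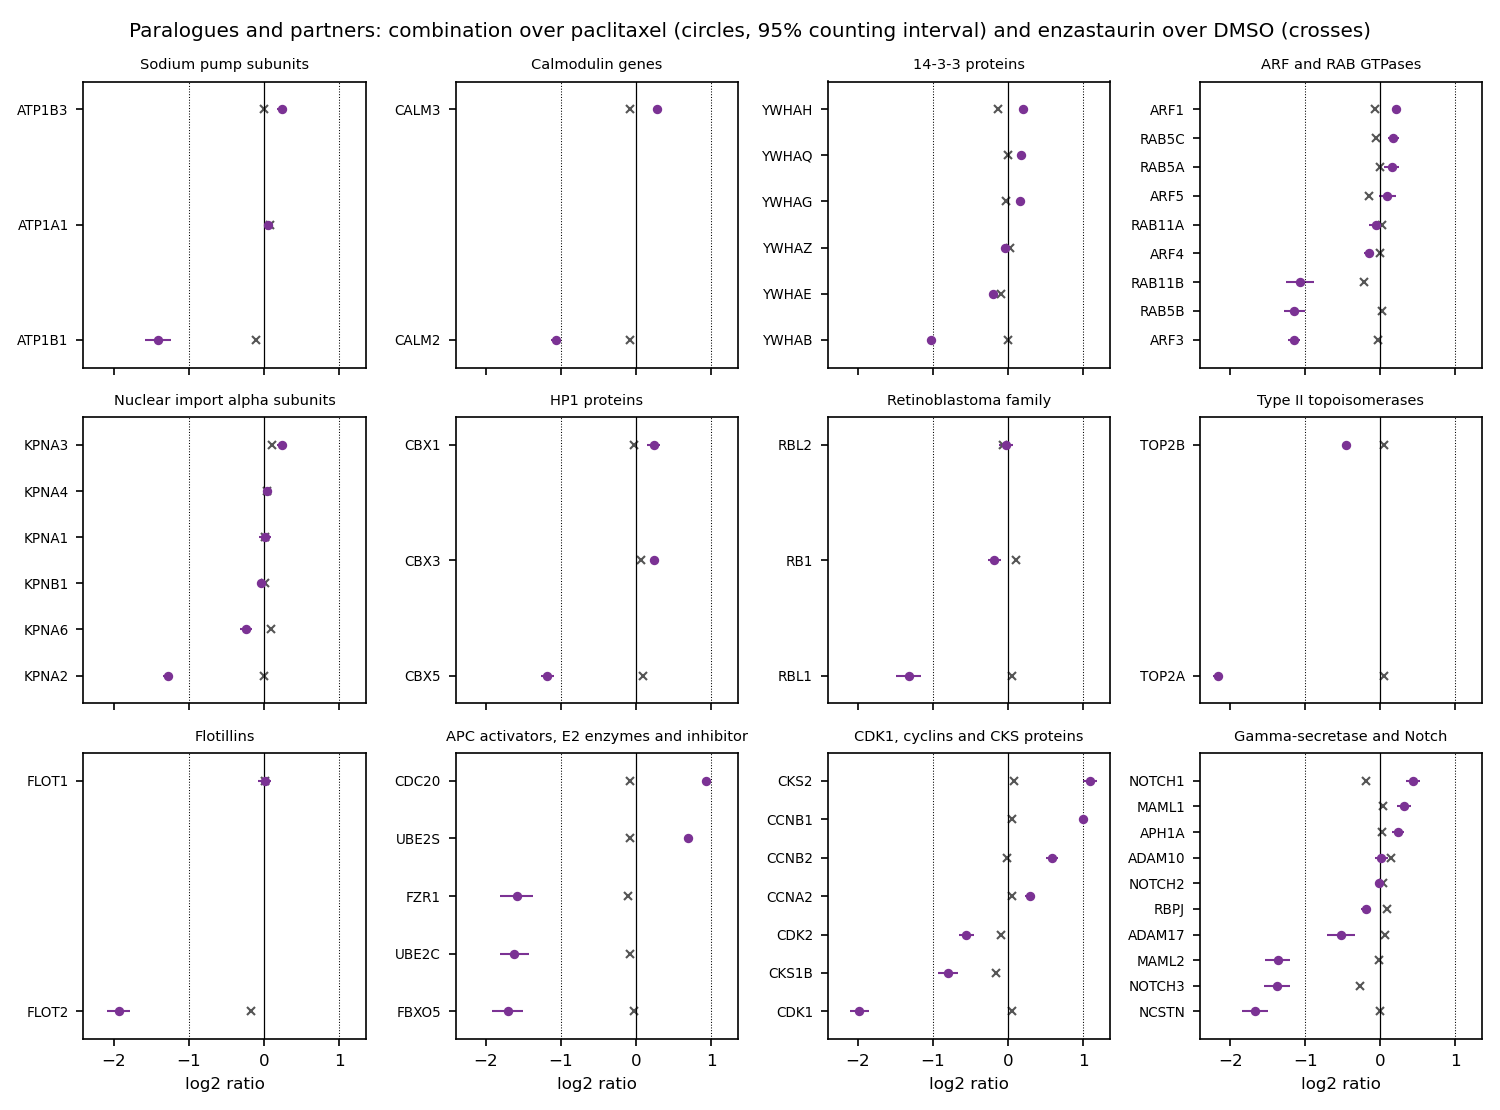
Log2 ratio of the members of 12 gene families for the combination over paclitaxel (circles, with 95% counting intervals) and for enzastaurin over DMSO (crosses), with dotted lines at 2-fold. In each family shown some member lies past 2-fold downward, such as KPNA2, CALM2 or FLOT2, while other members do not, and the crosses lie near 0 throughout.

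FLOT2, EHD2, MYADM and SLC29A1, genes of membrane scaffolds and transport, were among the lowest ratios. FLOT2, which forms flotillin microdomains with FLOT1 (ENSG00000132589; chromosome 17, 28879335 to 28897679, minus strand), had 23.9 CPM in the combination, 91.5 CPM in paclitaxel, 106 CPM in enzastaurin and 119 CPM in DMSO, while FLOT1 was at 0.01. EHD2, an ATPase at the neck of caveolae, had 51.4 CPM in the combination, 179.7 CPM in paclitaxel, 217 CPM in enzastaurin and 245 CPM in DMSO, while EHD1, EHD4 and CAV1 were at -0.04, -0.08 and 0.02. MYADM, a membrane raft protein, was at -1.72 (-1.88 to -1.57) and VPS25, of the ESCRT-II sorting complex, at -1.54 (-1.73 to -1.35), with the ESCRT-II partners VPS36 and SNF8 at 0.09 and 0.07. SLC29A1, the nucleoside transporter ENT1, had 26.1 CPM in the combination, 91.6 CPM in paclitaxel, 103 CPM in enzastaurin and 106 CPM in DMSO. SLC38A2, an abundant amino acid transporter, had 426 CPM in the combination, 1086 CPM in paclitaxel, 1097 CPM in enzastaurin and 1092 CPM in DMSO. The 98 solute carriers had a median of 0.01, which was -0.05 with no filter on low counts, and no other member was past 2-fold. With 2 of 98 past 2-fold downward, this list was near the share of all genes (1.96%), and 0 of 18 ABC transporters were past it. Of 24 clathrin, caveola and EHD genes 2 were, FLOT2 and EHD2, with a list median of -0.03.

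Single genes at several steps of Notch signalling were lower. NCSTN, the nicastrin subunit of gamma-secretase, which releases the Notch intracellular domain, had 20.03 CPM in the combination, 63.6 CPM in paclitaxel, 83.02 CPM in enzastaurin and 83.4 CPM in DMSO, a ratio of -1.67 (-1.84 to -1.50). Its partner APH1A was at 0.24. The receptor gene NOTCH3 was at -1.37 (-1.55 to -1.20) and the co-activator gene MAML2 at -1.36 (-1.53 to -1.20), whereas NOTCH1, NOTCH2 and MAML1 were at 0.44, -0.02 and 0.31. WNT5A, a ligand of the beta-catenin-independent WNT branch, was at -1.18 (-1.38 to -0.98), and PYGO2, a nuclear WNT co-activator, at -1.31 (-1.52 to -1.11). Of 23 WNT and Notch genes, NOTCH3, MAML2 and WNT5A were past 2-fold downward and 10 were positive, against 1.96% and 55.2% of all genes. The median of that list was -0.09, and 0.02 at a mean of 1000 or more counts.

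Targets of the Hippo factor YAP, early-response genes and matrix genes were mostly lower. THBS1, which encodes the matricellular protein thrombospondin 1, had 237 CPM in the combination, 817 CPM in paclitaxel, 876 CPM in enzastaurin and 964 CPM in DMSO, and CCN1, a secreted YAP target (ENSG00000142871; chromosome 1, 85580761 to 85583962, plus strand), had 56.04 CPM in the combination, 207 CPM in paclitaxel, 278 CPM in enzastaurin and 326 CPM in DMSO. Both were lowest in the combination, and CCN1 was also lower in paclitaxel than in DMSO. CPA4, a secreted carboxypeptidase gene with the lowest ratio of all 6986 genes (ENSG00000128510; chromosome 7, 130293134 to 130324180, plus strand), had 5.60 CPM in the combination, 28.7 CPM in paclitaxel, 53.4 CPM in enzastaurin and 61.9 CPM in DMSO, a ratio of -2.36 (-2.67 to -2.05). CPA4 was lowest in the combination and next lowest in paclitaxel, where it already lay below the value in DMSO. Its promoter is shown because it holds sites of both factor families discussed here, with AP-1 sites (TGANTCA), a TEAD site (GGAATG, bound by the partners of YAP) and TATA boxes (TATAAA) in capitals, on either strand.
CPA4 (chr7:130292911-130293210, plus strand): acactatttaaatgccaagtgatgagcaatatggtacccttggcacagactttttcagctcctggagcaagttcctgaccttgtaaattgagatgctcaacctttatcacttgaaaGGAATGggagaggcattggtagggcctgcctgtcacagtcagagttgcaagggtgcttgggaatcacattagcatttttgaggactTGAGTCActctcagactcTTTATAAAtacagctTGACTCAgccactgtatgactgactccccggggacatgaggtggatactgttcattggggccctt
It holds 2 AP-1 sites, 1 TEAD site and 2 overlapping TATA boxes. An AP-1 site was found in 6.86% of promoters of genes past 2-fold downward, in 2.50% of those past 1.5-fold upward and in 4.17% of all matched genes, and a TEAD site in 16.7%, 5.00% and 10.4%. A TATA box was found in 9.80%, 5.00% and 4.95% of the same sets. Over all RefSeq promoters the shares were 7.76% for AP-1, 14.05% for TEAD and 11.95% for the TATA box.

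Over all genes 1.96% were past 2-fold downward and 6.74% past 1.5-fold. Of 24 AP-1, EGR, KLF and MYC genes 4 were past 2-fold downward and 10 past 1.5-fold (median -0.57, against 0.033 over all genes). That median was -0.38 at a mean of 1000 or more counts and -0.28 with no filter. JUND, an AP-1 subunit, was at -1.66 (-1.92 to -1.42), KLF6 at -1.12, the MYC antagonist MXD4 at -1.04 and MYC at -0.79, whereas FOSL1 was at 0.21 and MAFG at 0.24. ZFP36, which speeds the decay of AU-rich mRNAs, was at -1.30 (-1.47 to -1.13), and its relatives ZFP36L1 and ZFP36L2 were at -0.72 and -0.36. Of 32 YAP targets and Hippo genes 27 were negative (median -0.26), where 44.8% of all genes were. The kinase gene STK4 (MST1) was at -0.94 beside its paralogue STK3 at 0.20 (STK4 had 9.19 FPKM in the combination and 14.07 FPKM in paclitaxel), and the TEAD4 and TEAD1 genes were at -0.08 and -0.03.

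Of 28 collagen, laminin and basement membrane genes 23 were negative (median -0.32) and 3 were past 2-fold downward, against 44.8% and 1.96% of all genes. The 3 past 2-fold downward were the collagen-modifying enzymes PLOD2, at -1.11 (-1.27 to -0.96), and P4HA2, at -1.04 (-1.25 to -0.84), and the chain gene COL4A6, at -1.01 (-1.11 to -0.91). PLOD1 and PLOD3, which hydroxylate lysine as PLOD2 does, were at 0.10 and 0.25. With the trend in transcript length and GC content removed, the median of this list moved to -0.19. In the TGF-beta list TGFBR3, the co-receptor betaglycan, had 11.7 CPM in the combination, 38.1 CPM in paclitaxel, 49.1 CPM in enzastaurin and 39.2 CPM in DMSO, while the signalling receptor TGFBR2 was at -0.21, and SKI, a repressor of SMAD complexes, was at -1.11. DAB2, an endocytic adaptor, was at -1.03, and SDC3, a heparan sulfate proteoglycan, at -1.38.

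In adhesion and cytokine signalling single kinases, receptors and phosphatases were lower, while list medians were small. Of 26 integrin and focal adhesion genes 7 were positive (median -0.08) and 2 were past 2-fold downward. Over all genes 55.2% were positive and 1.96% were past 2-fold downward. Of 36 RAS, RAF and MAP kinase genes 16 were positive (median -0.06). Of 16 interferon-stimulated genes 7 were positive (median -0.05), as were 6 of 17 NF-kB and cytokine genes (median -0.14). PTK2B (PYK2), a calcium-responsive focal adhesion kinase, was at -1.34 (-1.55 to -1.13) and SRC at -1.02 (-1.20 to -0.85), while PTK2 (FAK), PXN and ILK were at 0.05, 0.06 and 0.10. STAT2, a transducer of interferon signals, was at -0.84, whereas the interferon-inducible TAP1 and HLA-B were at 0.42 and 0.19. TNFRSF1B, a TNF receptor, was at -1.33 (-1.53 to -1.13) and TNFRSF1A at -0.73. F2R, the thrombin receptor, was at -1.27 and IL1RL1, the IL-33 receptor, at -1.03. Of the ERK phosphatases and inhibitors DUSP1 was at -1.03 (-1.14 to -0.92), DUSP7 at -0.92, DUSP6 at -0.71 and SPRY2 at -0.60. ARHGEF11, a guanine nucleotide exchange factor, had 13.4 CPM in the combination, 39.9 CPM in paclitaxel, 45.5 CPM in enzastaurin and 39.01 CPM in DMSO. Among the PKC and PKD genes PRKCD was lowest at -0.66 (-0.80 to -0.51), with PRKCA at -0.15, PRKCI at 0.24 and the PKC substrate MARCKS at -0.35.

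In the BCL2 family MCL1, a short-lived survival protein, had 233 CPM in the combination, 561 CPM in paclitaxel, 532 CPM in enzastaurin and 564 CPM in DMSO, a ratio of -1.27 (-1.32 to -1.22), and the survival gene BCL2L1 was at -0.62. The pore-forming BAX and BAK1 were at 0.54 (0.40 to 0.68) and 0.42 (0.28 to 0.55). Of 14 genes of the BCL2 and caspase list only MCL1 was past 2-fold, where 1.96% of all genes were past it downward. CASP2 was at -0.95. GADD45B, a stress-inducible gene, was at -1.27. Among autophagy genes ATG13, ATG2A and ULK1, which act at initiation and growth of the autophagosome, were at -0.73, -0.67 and -0.62, and ATG5 was at 0.42.

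Several large housekeeping groups were mostly higher by small amounts. All 82 cytosolic ribosomal protein genes were positive, from 0.05 to 0.45, with a median of 0.27 against -0.05 in enzastaurin over DMSO. Of 40 proteasome genes 37 were positive (median 0.27), as were 13 of 13 CCT and prefoldin genes (median 0.28) and 10 of 11 RNA polymerase II subunits (median 0.26). Of 72 nuclear oxidative phosphorylation genes 63 were positive (median 0.22), and the lowest was SDHA, a complex II subunit, at -0.58 (-0.63 to -0.52). Of 67 mitochondrial ribosomal genes 61 were positive (median 0.21). No gene of these 6 lists was past 1.5-fold in either direction. Over all genes 55.2% were positive, 0.773% were past 1.5-fold upward and 6.74% past it downward. Short transcripts were higher as a class, and with the trend in transcript length and GC content removed, the medians moved to 0.13 for cytosolic ribosomal genes, 0.19 for proteasome genes, 0.21 for CCT and prefoldin genes, 0.20 for RNA polymerase II, 0.13 for mitochondrial ribosomal genes and 0.08 for oxidative phosphorylation genes. The 13 mitochondrially encoded genes had a median of -0.01 (0.01 with DESeq2 size factors), between MT-CO3 at -0.20 and MT-ND1 at 0.25.

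Cytosolic chaperones had the highest median of the 74 lists with 5 or more members, 0.36, and kept 0.35 with that trend removed. Of 25 chaperone genes 22 were positive and 4 were past 1.5-fold upward, including HSPE1, whose reads are partly shared. Over all genes 55.2% were positive and 0.773% were past 1.5-fold upward. HSPH1, which encodes HSP105, had 439 CPM in the combination, 259.6 CPM in paclitaxel, 229 CPM in enzastaurin and 224 CPM in DMSO, and CHORDC1, an HSP90 co-chaperone (ENSG00000110172; chromosome 11, 90201160 to 90223364, minus strand), had 106 CPM in the combination, 60.8 CPM in paclitaxel, 58.5 CPM in enzastaurin and 53.8 CPM in DMSO. STIP1, which links HSP70 to HSP90, was at 0.66, and HSPA8, the constitutive HSP70, at 0.58; DNAJB1, an HSP40 that heat shock induces, was at -0.62 (-0.74 to -0.49). The CHORDC1 promoter is shown as the example of this group, with matches to the heat shock element (GAANNTTC) in capitals.
CHORDC1 (chr11:90223000-90223299, minus strand): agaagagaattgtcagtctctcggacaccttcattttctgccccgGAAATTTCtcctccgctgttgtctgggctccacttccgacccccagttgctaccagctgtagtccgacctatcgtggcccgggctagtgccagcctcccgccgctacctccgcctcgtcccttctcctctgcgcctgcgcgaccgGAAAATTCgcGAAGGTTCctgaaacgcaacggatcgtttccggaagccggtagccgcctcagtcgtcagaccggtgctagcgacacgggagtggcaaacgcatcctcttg
It holds 3 matches. Such a match was found in 6.86% of promoters of genes past 2-fold downward, in 5.00% of those past 1.5-fold upward and in 4.40% of all matched genes, against 6.87% of all RefSeq promoters.

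Targets of the antioxidant factor NRF2 were mostly higher, with 21 of 25 positive, against 55.2% of all genes, and a median of 0.28. HMOX1, which breaks down haem, had 342 CPM in the combination, 202 CPM in paclitaxel, 106 CPM in enzastaurin and 80.2 CPM in DMSO. HMOX1 was above DMSO in both single-drug libraries and highest in the combination. GCLM, a subunit of the enzyme that starts glutathione synthesis, was at 0.67 (0.59 to 0.76), and TXN and FTL were at 0.45 and 0.43. UGDH, which makes UDP-glucuronic acid, had 244 CPM in the combination, 128 CPM in paclitaxel, 109 CPM in enzastaurin and 105 CPM in DMSO, a ratio of 0.93 (0.86 to 0.99). AKR1C1 and AKR1C2, at 0.79 and 0.75, share sequence with each other and can only be read together.

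**Figure D4:**
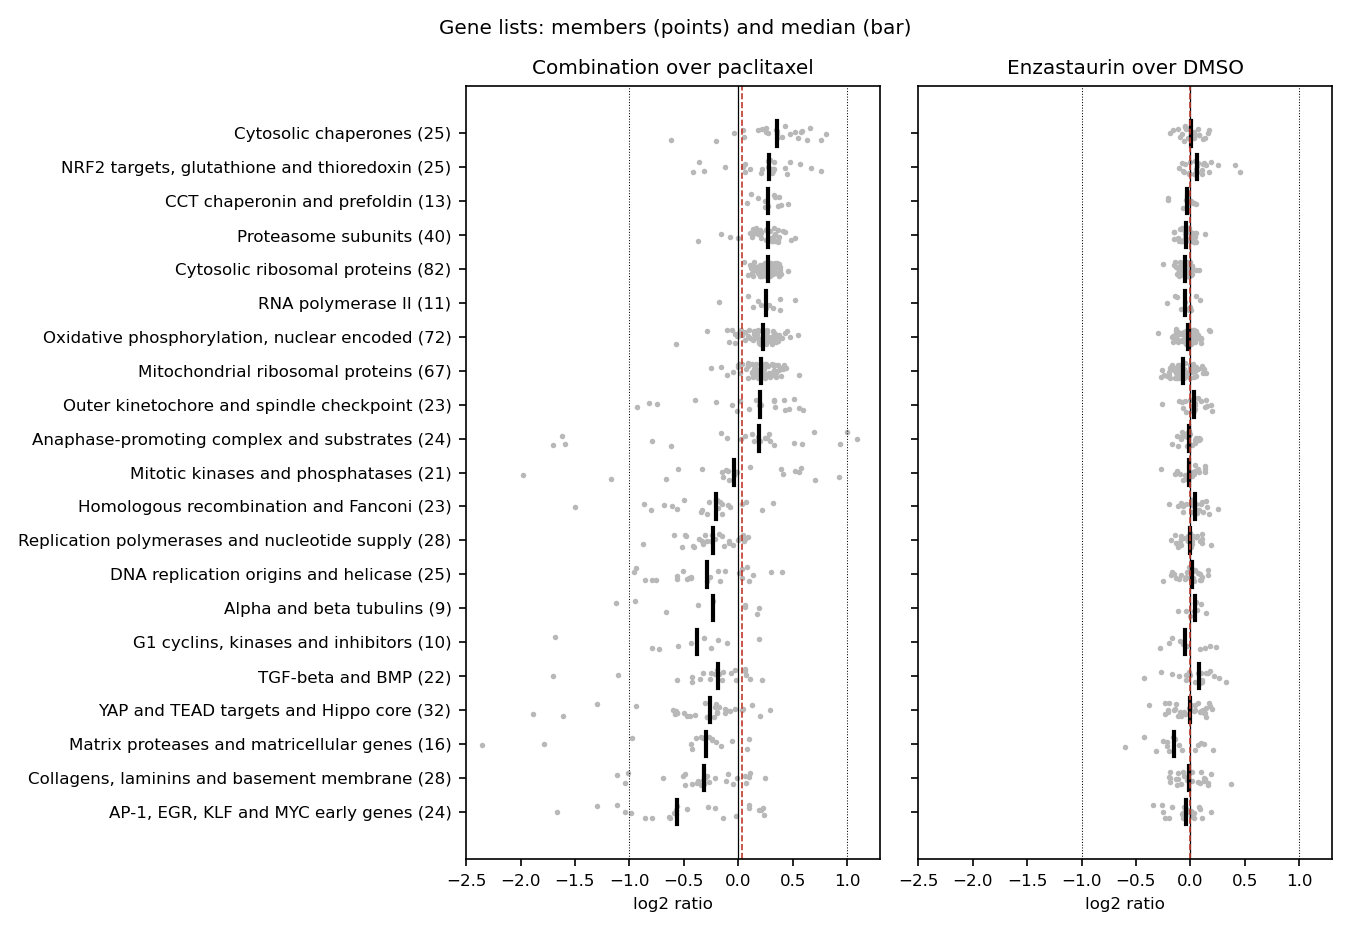
Log2 ratios of the members of 21 gene lists (points, number of members in parentheses) with the list's median (black bar), for the combination over paclitaxel (left) and enzastaurin over DMSO (right). The dashed red line is the median of all genes and dotted lines mark 2-fold; on the left the medians run from 0.36 for cytosolic chaperones to -0.57 for AP-1, EGR, KLF and MYC genes.

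Single genes of transcription and RNA processing were far lower, but the lists held few of them. Past 2-fold downward were 1 of 23 Mediator genes, 1 of 42 mRNA decay genes and 1 of 80 ZNF genes, against 1.96% of all genes. None of 30 elongation, 24 SR splicing and 30 chromatin remodelling genes was past it downward, nor any of 22 histone methyltransferases. INTS5, ZC3H4, DGCR8, VPS72, RBM5 and RBM23 were picked after their values were seen. MED29, a Mediator subunit, was at -1.39 (-1.60 to -1.18), while CDK8, the Mediator kinase, was at 0.71. CDK7 and HEXIM1 were at 0.43 and 0.42, and CCNT1, the cyclin of the elongation kinase CDK9, at -0.59. INTS5, of the Integrator complex, was at -1.35 (-1.56 to -1.15), ZC3H4, which restrains non-coding transcription, at -1.50 (-1.68 to -1.33), and DGCR8, the partner of DROSHA in miRNA processing, at -1.22 (-1.37 to -1.07). The chromatin remodelling subunits SMARCC2 and ARID1A were at -0.95 (-1.04 to -0.86) and -0.84 (-0.94 to -0.75), while SMARCA4 and SMARCB1 were at 0.21 and 0.41. VPS72, which deposits histone H2A.Z, was at -1.54 (-1.76 to -1.32). Among histone methyltransferases KMT2E was at -0.91 and KMT2D at 0.44, and among splicing kinases CLK2 was at -0.86 and CLK3 at 0.63. The splicing factors RBM5 and RBM23 were at -1.21 (-1.34 to -1.08) and -1.48 (-1.69 to -1.28).

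Glycolysis and cholesterol genes lay within 1.5-fold with a single exception. No gene of 21 glycolysis genes was past 1.5-fold, and of 18 cholesterol genes only STARD4, a sterol carrier, was, at -1.06 (-1.26 to -0.86). Over all genes 6.74% were past 1.5-fold downward and 0.773% upward, so such low counts are not particular to these lists. SREBF1 was at -0.57 and FASN at -0.21. PSAT1, of serine synthesis, was at -0.69, and SLC7A11, the cystine importer, at 0.47. GPAT3, of triglyceride synthesis, was at 0.73 (0.62 to 0.84). ABCB1, the efflux pump for paclitaxel, was the highest of 18 ABC transporters at 0.33.

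Of the 137 genes past 2-fold downward 50 stand in any of the 75 gene lists and 87 in none. Over all 6986 genes 1973 stand in a list, so standing outside the lists is not particular to the lower genes. Among the 87 is DPYSL2, which encodes a microtubule-binding protein of axon growth. DPYSL2 had 47.9 CPM in the combination, 152 CPM in paclitaxel, 158 CPM in enzastaurin and 167 CPM in DMSO. The same 87 include TRIR, an RNA exonuclease gene, at -1.60, and FAM83D, which brings casein kinase 1 to the spindle, at -1.59 (-1.74 to -1.44). IGF2BP2, an mRNA-binding protein, at -1.50 (-1.67 to -1.33), and FGD4, an exchange factor for CDC42, at -1.52, also stand in no list. The transcription factor genes SOX4, KLF9, DLX1 and ZBTB16 were at -1.30, -1.07, -1.24 and -1.11. Of the 54 genes past 1.5-fold upward 28 stand in no list, among them SAPCD2, a regulator of spindle orientation, at 0.83 (0.75 to 0.90), TROAP, a spindle protein, at 0.74, B4GALT3, a galactosyltransferase, at 0.82 (0.67 to 0.96), and SCLT1, a centriole appendage protein, at 0.74. Of the 137 lower genes 10 share sequence with another gene or belong to a readthrough locus, among them CCNE2 at -1.68 and PIK3R2 at -1.42, and their values are uncertain.

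Enzastaurin was set against DMSO over the same 6986 genes to see whether the losses were present without added paclitaxel. No gene was past 2-fold in either direction (0% higher and 0% lower), and at 1.5-fold none was higher (0%) and 5 were lower (0.0716%). These 5 were MGLL, TGM2, DUSP5, PLAT and DUSP6, at -0.70 (-0.87 to -0.54), -0.68 (-0.82 to -0.54), -0.65 (-0.81 to -0.49), -0.60 (-0.69 to -0.51) and -0.59 (-0.78 to -0.40). Their ratios in the combination over paclitaxel were -0.11, -0.45, -0.48, -0.39 and -0.71. The log2 ratios of enzastaurin over DMSO had an SD of 0.123, against 0.344 in the combination over paclitaxel. In the 137 genes past 2-fold downward the ratio of enzastaurin over DMSO had a median of -0.02 and ran from -0.46 to 0.45. All 137 had their lowest value of the 4 libraries in the combination. They were picked as lower there than in paclitaxel, so this largely follows from the selection. The other 3 libraries spanned a median of 0.22 on the log2 scale in these genes and 0.13 in all 6986.

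The difference between the ratios with and without paclitaxel, which share no library, was -1 or less in 148 of the 6986 genes and 1 or more in 3. For TOP2A it was -2.22, for CDK1 -2.03 and for FLOT2 -1.77, as the ratios of enzastaurin over DMSO were 0.05, 0.05 and -0.17. Among the higher genes it was 1.01 for CKS2, 0.94 for CCNB1 and 0.91 for AURKA. HMOX1 was higher in both settings, at 0.76 with paclitaxel and 0.41 (0.32 to 0.50) without, and SLC7A11 likewise at 0.47 and 0.45 (0.40 to 0.51). Across genes the ratios of both settings were nearly unrelated (Pearson 0.049 and Spearman 0.028, genes not being independent). Both ratios also ran with transcript length, in opposite directions (Spearman -0.27 with paclitaxel and 0.31 without). This trend was not removed before they were correlated, so the values do not show how the effects of enzastaurin relate apart from length.

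Across the 6981 genes with annotation in GENCODE 29, the ratio of the combination over paclitaxel followed transcript length (Spearman -0.27). With genes in 5 equal bins of transcript length, the median was 0.15 in the shortest bin and -0.06 in the longest. Length of the 3′ untranslated region gave a Spearman value of -0.19, gene span -0.13 and GC content -0.04. Enzastaurin over DMSO ran the other way with length (Spearman 0.31) and more strongly with GC content (-0.52). Of 1396 genes in bin 4 of 3′ untranslated length 42 were past 2-fold downward (3.01%), in bin 5 the share was 1.86%, and in the shortest bin it was 1.22% (17 genes). Of the 1397 genes with the fewest exons 42 were past 2-fold downward (3.01%). By chromosome the share past 2-fold downward was 4.71% on chromosome 19 (17 of 361 genes) and 0% on chromosomes 18 (0 of 107) and 21 (0 of 75). What sets these shares was not tested.

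**Figure D5:**
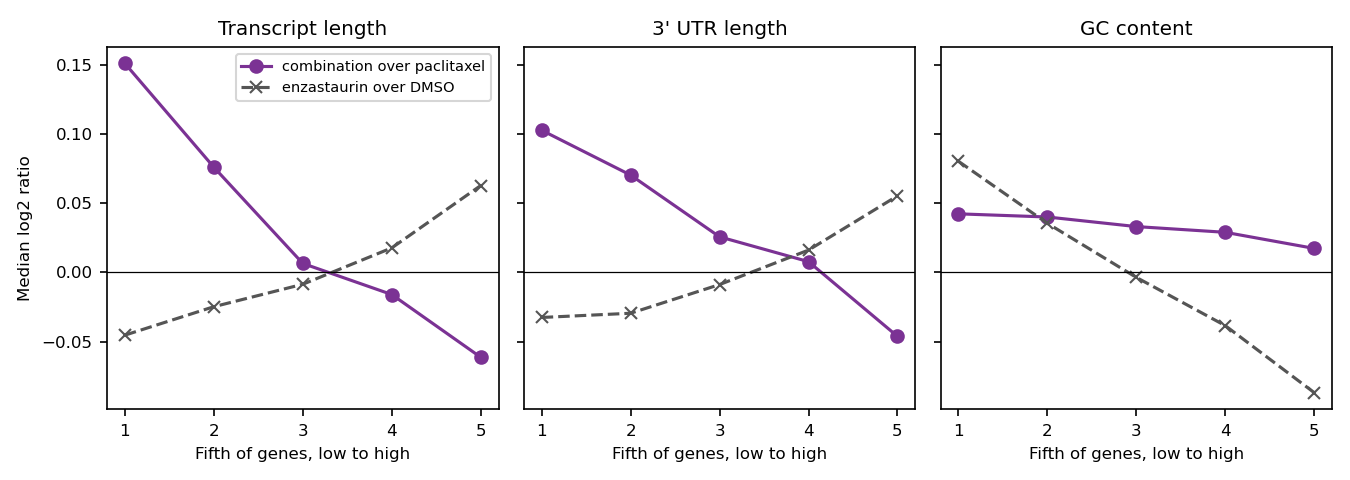
Median log2 ratio of genes grouped into 5 equal bins of transcript length, length of the 3′ untranslated region and GC content (horizontal axes, low to high), for the combination over paclitaxel (circles) and enzastaurin over DMSO (crosses). With the combination over paclitaxel the median runs from 0.15 in the shortest to -0.06 in the longest transcripts, and enzastaurin over DMSO runs the opposite way.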

How the data were processed

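Total RNA was sequenced from 1 library in each of 4 conditions. The deposited table gives, per the file headers, read counts and FPKM per gene for each library. The submitters' processing notes name RSEM and the build hg38; no aligner, annotation or tool version is named there, so these are not given here. The counts are expected counts that the authors deposited and that need not be whole; they were rounded to whole numbers. The FPKM values that the authors deposited served as an alternative unit.

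Counts were scaled with TMM (edgeR 4.0.16, R 4.3.3), and genes whose counts averaged 500 or more were kept. The log2 ratio of the 2 libraries has a 95% exact conditional binomial interval (Clopper-Pearson, scipy 1.17.1). It covers counting error only, since each condition has 1 library, so no p-value is given. A gene was counted as higher or lower when its ratio passed 2-fold (or 1.5-fold) and the interval excluded 0. Genes in readthrough loci, or with at least 20% of their 31-base words found in another gene (GENCODE 29), were treated as sharing reads. Promoters are RefSeq windows of GRCh38.p14, matched by symbol for 5392 of 6451 genes that share no reads. In all, 583 genes of the table have no symbol. The calculations were tested on simulated data.

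The genes compared and the gene lists were chosen with earlier results of these data known. Leaving out genes that share reads, genes were named by rule as the 15 highest and 15 lowest, AURKB and the PKC genes. The rule also took the most extreme members of each list past 2-fold, or the 2 furthest from 0 where none passed. All other genes named were chosen after their values were seen. They include partners, paralogues and genes that stand in no list. A few genes are not reported here. Alternatives were DESeq2 1.42.0 size factors, library size alone, other count minimums, FPKM, thinned counts, subtraction of a lowess trend over length and GC, 1.5-fold, and leaving out genes that share reads.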

Additional observations from a re-analysis of the deposited data

Results flagged for a closer look

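In 960 of the 6986 genes the ratios with and without paclitaxel had opposite signs and both counting intervals excluded 0. Of these 39 were past 1.5-fold in the combination over paclitaxel and at least 0.2 from 0 in enzastaurin over DMSO, and 8 of the 39 are among the genes named by rule. Genes with the same sign in both ratios and both intervals clear of 0 were not counted, so the 960 have no share beside them. Across genes the ratios were nearly unrelated (Pearson 0.049), so opposite signs are not particular to the genes named here. The ratios also ran in opposite directions with transcript length, and this trend was not removed before signs were compared. Each condition has 1 library, so the difference was not tested against the spread between cultures. The difference of the log2 ratios, combination over paclitaxel minus enzastaurin over DMSO, was -2.03 in TGFBR3, -1.80 in ARHGEF11, -1.75 in BARD1, -1.49 in PLOD2, -1.34 in STARD4, -1.23 in NFKBIA, -0.93 in MDM4 and -0.92 in CSF1. In TGFBR3 the ratio was -1.70 with paclitaxel and 0.32 without it, and in ARHGEF11 it was -1.58 and 0.22. BARD1 had -1.50 and 0.25, PLOD2 had -1.11 and 0.38, and STARD4 had -1.06 and 0.28. NFKBIA, which encodes the inhibitor of NF-kB, had -0.99 and 0.25, MDM4, a p53 inhibitor, had -0.60 and 0.33, and CSF1, the macrophage growth factor, had -0.69 and 0.23.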

How the results depend on the processing

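No paired analysis was possible because every arm is a single library (1 each), so none could be left out. The 2 genes higher and 137 genes lower by 2-fold became 8 and 273 at a mean of 100 or more counts, 2 and 83 at 1000 or more, and 166 and 594 with no filter, where 78.2% of genes past 2-fold were lower. At 1.5-fold they were 54 and 471, of which 89.7% were lower. FPKM gave 5 higher genes with a pseudocount of 1 and 6 with 0.1; removing the trend in transcript length and GC content left 1, as did leaving out genes that share reads. Of the 137 lower genes 104 remained with FPKM and a pseudocount of 1, and 123 with the trend removed. In the remaining settings the counts stayed within 1.5 times.

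Of 74 list medians 22 changed sign under some setting, 18 of them within 0.1 of 0 to begin with. The growth factor list was at -0.18, and at 0.10 with a mean of 100 or more counts, 1000 or more, or no filter. The cadherin and junction list was at -0.16, at 0.0202 with 1000 or more counts and at 0.0238 with the trend removed. The E2F and RB list was at -0.18, and at 0.0711 with 1000 or more counts. Histone genes were at -0.40, and at 0.20 with no filter. The cytokinesis list was at 0.10, and with FPKM at -0.0104 (pseudocount 1) and -0.0108 (0.1). MT-ND3 was at 0.21, and at -0.0556 with the trend removed. Inner kinetochore and microtubule-associated medians, 0.02 and -0.02, were -0.06 and 0.06 with the trend removed. Without a change of sign, a mean of 1000 or more counts moved the median of G1 regulators to -0.25, of replication origin genes to -0.43 and of YAP and Hippo genes to -0.42, and removing the trend moved that of semaphorins and plexins to -0.21. The causes were not tested. Of 151 genes named by rule, 150 kept their sign under the alternatives run. Most of them were named for a ratio far from 0, so few could have changed sign. Low counts limit the genes outside the set described.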

Other observations

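Other gene groups also held lower members in the combination. Of 10 semaphorin, plexin and neuropilin genes 8 were negative, against 44.8% of all genes, and SEMA5A, a guidance cue, was lowest at -1.09 (-1.23 to -0.94). Of 13 receptor tyrosine kinase genes IGF1R was lowest at -0.82 (-0.99 to -0.65), and EGFR and MET were at -0.16 and 0.09. SGK1, a kinase of the PI3K pathway, was at -1.06 (-1.27 to -0.86). Of 12 p53 targets ZMAT3 was lowest at -0.97 (-1.16 to -0.78), or -0.60 from FPKM with a pseudocount of 1, and BAX highest at 0.54. Of 16 histone demethylases 10 were positive (median 0.11), while KDM5B and KDM5A were at -0.70 and -0.66. PHF8, at -0.70, was at -0.26 from FPKM with a pseudocount of 1. Of the actin and myosin genes 1 was past 1.5-fold, with ACTB at 0.06 and CAPZA1, a capping protein of actin filaments, lowest of 39 at -0.86 (-0.92 to -0.79).

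The deposited counts and FPKM values of a gene need not change by the same amount, because RSEM's effective length depends on which transcripts the reads were assigned to. NCBP3, a cap-binding protein gene, had 629 counts in the combination and 841 counts in paclitaxel, but 19.92 FPKM in the combination and 5.87 FPKM in paclitaxel. The effective length implied by each pair was 1731 bases in the combination and 5800.4 bases in paclitaxel for NCBP3, a log2 ratio of -1.74. PNRC2, which recruits the decapping enzyme, had a log2 ratio of implied length of -0.85, VPS51 of -0.71 and SMG1, a kinase of nonsense-mediated decay, of -0.66. In enzastaurin over DMSO the same ratio was -0.94 for NCBP3, -0.04 for PNRC2, 0.39 for VPS51 and 0.06 for SMG1. Whether transcript usage changed was not tested.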
